A study of Mus musculus with 31 samples.

Results

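The Wnt ligands described here are 6 genes, Wnt3, Wnt9a, Wnt4, Wnt5a, Wnt7a and Wnt7b, of the 11 Wnt ligand genes among the 15648 genes quantified by bulk RNA-seq in mouse hippocampus. They were chosen by name from a table of gene counts, with their values in these same mice already known. The differences between both vectors are therefore given for these genes as a description, without a test or a call. The 5 Wnt ligand genes that were quantified but not chosen are Wnt2, Wnt5b, Wnt9b, Wnt10a and Wnt11, and these were tested.

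Wnt proteins are secreted, lipid-modified glycoproteins that Porcn acylates and Wls carries to the cell surface. They bind Frizzled receptors together with Lrp5 or Lrp6, which stabilizes beta-catenin and lets it act with Tcf and Lef factors on target genes, or they act through Ror and Ryk receptors on cell polarity and calcium. In the adult hippocampus, Wnt signals are known for roles in synapse maintenance and in the generation of granule cells in the dentate gyrus, and Wnt7a and Wnt7b from neural cells maintain the blood-brain barrier through Adgra2 and Reck on endothelial cells.

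Left hippocampi were taken from 31 adult OT-I/Rag1-/- mice, each sequenced as its own library. All mice carried the OT-I transgene, a T cell receptor against an ovalbumin (OVA) peptide, and lacked Rag1, so that no T or B cells with receptors of their own arise. rAAV-OVA mice had been injected into the dorsal CA1 of both hemispheres with a recombinant adeno-associated virus in which the neuronal hSyn promoter drives OVA together with mCherry. rAAV-control mice had received the mCherry vector without OVA, so injection, virus and fluorescent protein were shared by both groups. Tissue was collected after 2, 5, 8 and 28 d, with 4 mice per vector and day except for 3 rAAV-control mice at 8 d. The 5 d and 8 d mice all belonged to batch 1, and at 2 d and 28 d each vector had 2 mice in batch 1 and 2 in batch 2. The labels do not say what a batch stands for.

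Libraries held 19046977 to 57407902 counts, and a ligand gene had between 20 and 3194 counts in a mouse. Levels are given as CPM, counts scaled to 1000000 per library with TMM factors. The TMM factors ran from 0.897 to 1.11. The fold change (Log2FC, with its standard error, SE) is that of rAAV-OVA over rAAV-control from a model that also holds 2 surrogate variables. These are covariates estimated from the counts themselves, meant to take up variation beyond vector and day. They can still be correlated with the groups, and adding them changed some Log2FC, such as that of Wnt4 at 28 d given below. Outside the 6 ligands, a gene was called at an absolute Log2FC of at least 0.66 together with an FDR of at most 0.05, from the quasi-likelihood test of edgeR and adjusted by Benjamini-Hochberg over all 15648 genes. Several mice stood apart by their cell type markers. Choroid plexus markers summed to 3800 CPM in rAAV-control mouse D724 at 5 d and to 142 CPM or less in the other 7 mice of that day. rAAV-control mouse D720 at 8 d had 17.8 CPM of the 2 tested T cell markers, Cd8a and Gzmb. The other rAAV-control mice of that day, D696 and D722, had 1.42 and 1.19 CPM. Choroid plexus markers summed to 1410 CPM in D720 and to 62.7 and 48.2 CPM in D696 and D722. Its microglia markers summed to 1190 CPM, against 392 and 551 CPM in these mice. At 28 d, rAAV-OVA mouse D844 had 6.86 CPM of these T cell markers and 1760 CPM of interneuron markers, against 84.1 CPM or more and 537 CPM or less in the other 3 rAAV-OVA mice. rAAV-OVA mouse D845 had the highest meningeal fibroblast marker sum of that day, 975 CPM against 301 CPM or less, together with 5280 CPM of choroid plexus markers against 411 CPM or less in the other rAAV-OVA mice and 64.7 to 4270 CPM in rAAV-control mice. At 2 d, choroid plexus markers summed to 5140 CPM in rAAV-OVA mouse D684, against 90.9 to 188 CPM in the other rAAV-OVA mice and 644 to 2040 CPM in rAAV-control mice.

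Per kilobase of the longest coding transcript, Wnt7b was the most abundant ligand of the 6 in the 15 rAAV-control mice, with a mean of 15.6 CPM per kb and a range of 12.3 to 20.9. Its lowest mouse lay above the highest mouse of every other ligand. Wnt7a followed with 4.09 (2.42 to 5.23), Wnt4 with 2.24 (1.65 to 3.43), Wnt9a with 1.97 (1.14 to 3.22), Wnt5a with 1.47 (1.06 to 2.14) and Wnt3 with 0.827 CPM per kb (0.462 to 1.74). From Wnt7a down, the ranges of neighbours in this order overlapped. Transcript lengths are those of GENCODE M21, from 3076 bases for Wnt3 to 7010 for Wnt5a, whereas the counts rest on GENCODE M29. No stretch of 31 bases was shared between coding transcripts of any 2 of the 11 ligand genes in GENCODE M21, Wnt7a and Wnt7b included.

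Promoter sequences were found in RefSeq (GRCm38.p6) for 4 of the 6 ligands, Wnt3, Wnt9a, Wnt4 and Wnt7a, and no entry was found for Wnt5a and Wnt7b. Shown are the 250 bases before the annotated start of Wnt3 and Wnt9a, the ligands whose groups did not overlap at 5 d, and of Wnt7a, whose groups overlapped on every day. The Wnt3 stretch lies at chr11:103773925-103774174 on the plus strand, that of Wnt9a at chr11:59306680-59306929 on the plus strand, and that of Wnt7a at chr6:91411354-91411603 on the minus strand. Capitals mark the GC box GGGCGG on either strand, a motif bound by Sp1, and a run of capitals can hold adjoining or overlapping boxes.
Wnt3: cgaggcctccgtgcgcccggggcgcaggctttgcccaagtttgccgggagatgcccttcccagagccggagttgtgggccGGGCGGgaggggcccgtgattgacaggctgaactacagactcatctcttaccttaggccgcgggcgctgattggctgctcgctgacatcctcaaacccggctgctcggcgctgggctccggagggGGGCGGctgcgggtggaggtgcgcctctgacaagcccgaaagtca
Wnt9a: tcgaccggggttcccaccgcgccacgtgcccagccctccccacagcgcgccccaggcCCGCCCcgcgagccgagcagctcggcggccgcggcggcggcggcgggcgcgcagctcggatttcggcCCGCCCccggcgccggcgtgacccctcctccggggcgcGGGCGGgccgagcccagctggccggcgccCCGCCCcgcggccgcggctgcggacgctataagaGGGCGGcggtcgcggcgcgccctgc
Wnt7a: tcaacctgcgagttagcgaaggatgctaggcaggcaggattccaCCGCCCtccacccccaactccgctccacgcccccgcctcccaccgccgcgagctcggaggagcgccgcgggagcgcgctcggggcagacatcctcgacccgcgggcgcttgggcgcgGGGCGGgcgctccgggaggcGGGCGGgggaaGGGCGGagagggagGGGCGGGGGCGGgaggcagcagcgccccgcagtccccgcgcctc
Wnt3 held 2 GC boxes, Wnt9a 5 and Wnt7a 6, while 32.7% of the 32851 promoters in the table held at least 1. The core motif of Tcf and Lef factors, CTTTGA, was not among the letters of these windows or of that of Wnt4, and it occurred in 13.8% of all promoters. The STAT motif TTCNNNGAA, found in 7.02% of all promoters, and the NF-kB consensus motif, found in 7.25%, likewise had no match in the 4 windows. G and C made up 68% of the Wnt3 window, 84.4% of that of Wnt9a and 77.6% of that of Wnt7a. The Wnt4 window, not shown, held 8 GC boxes and 85.2% G and C, and the Wnt4 groups also overlapped on every day.

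Wnt9a and Wnt3 had lower levels in rAAV-OVA mice than in rAAV-control mice at 5 d, whereas Wnt7b was higher at that time and Wnt4 and Wnt5a were higher only in part of the rAAV-OVA mice at 28 d. The median Log2FC of the 6 ligands was 0.15 at 2 d, -0.17 at 5 d, -0.26 at 8 d and 0.14 at 28 d, and that of all genes 0.01, -0.01, -0.03 and 0.01.

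**Figure D1:**
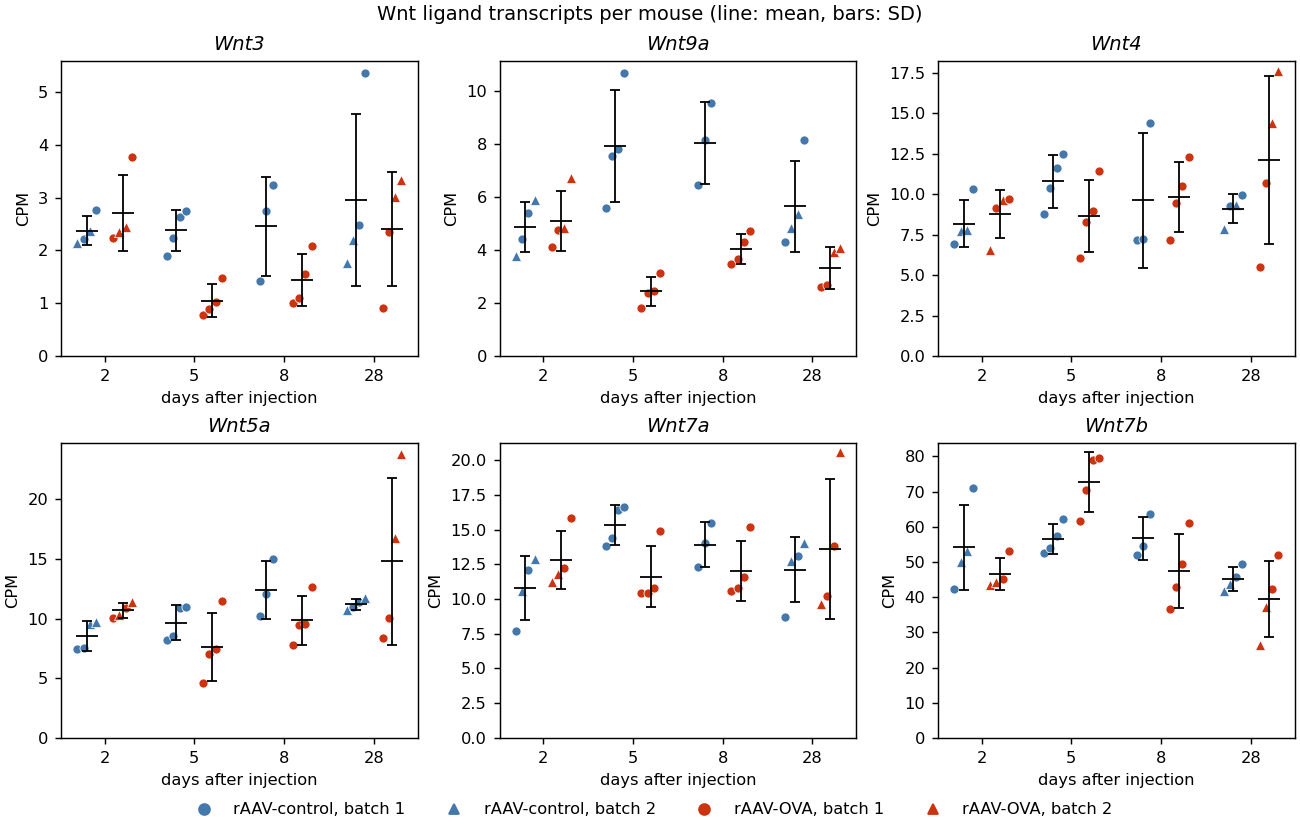
CPM of each Wnt ligand gene (y axes, linear from 0) in each of the 31 mice by days after injection (x axes). Points are mice, coloured by vector and shaped by batch, black lines are group means and bars SD. The Wnt9a points of rAAV-OVA mice lie below all rAAV-control points at 5, 8 and 28 d, and the high Wnt4 and Wnt5a points at 28 d are batch 2 mice.

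Wnt9a, a ligand known from joint formation and from blood stem cells, had the largest difference of the 6 ligands. At 5 d, the rAAV-OVA mice had 1.82, 2.39, 2.46 and 3.14 CPM of Wnt9a and the rAAV-control mice 5.60, 7.56, 7.83 and 10.7 CPM. All rAAV-OVA mice were below all rAAV-control mice, as was the case for 19.6% of all genes at 5 d. The mean was 2.45 ± 0.541 CPM (SD, n = 4) against 7.93 ± 2.12 CPM (n = 4), or 30.9% of the control level, with a Log2FC of -1.60 (SE 0.25). With each of the 31 mice left out in turn, this Log2FC ran from -1.76 to -1.36.

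At 8 d, Wnt9a reached 3.48, 3.67, 4.33 and 4.72 CPM in rAAV-OVA mice and 6.45, 8.15 and 9.55 CPM in rAAV-control mice. The groups again did not overlap, which held in the same direction for 11.9% of all genes at 8 d. Means were 4.05 ± 0.573 CPM (n = 4) and 8.05 ± 1.55 CPM (n = 3), a Log2FC of -0.96 (SE 0.25). Without rAAV-control mouse D722 it was -0.74. At 28 d, rAAV-OVA mice had 2.61, 2.69, 3.94 and 4.10 CPM and rAAV-control mice 4.30, 4.85, 5.37 and 8.16 CPM. The highest rAAV-OVA mouse was just below the lowest rAAV-control mouse, and 14% of all genes were lower without overlap at 28 d. Wnt9a averaged 3.34 ± 0.795 CPM against 5.67 ± 1.72 CPM (n = 4 each) at 28 d, with a Log2FC of -0.68 (SE 0.25). With each mouse left out it ran from -0.85 to -0.50. Within batch 1 the difference of mean log2 CPM was -1.14 and within batch 2 it was -0.34 (2 mice against 2 in each).

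At 2 d, Wnt9a showed 4.12, 4.75, 4.85 and 6.72 CPM in rAAV-OVA mice and 3.79, 4.42, 5.39 and 5.90 CPM in rAAV-control mice. The groups overlapped at 2 d, with a Log2FC of 0.08 (SE 0.23). The rAAV-control mean of Wnt9a differed between days, from 4.87 CPM at 2 d to 8.05 CPM at 8 d, while the rAAV-OVA mean was lowest at 5 d.

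Wnt3, which acts through beta-catenin and is known from axis formation and from hippocampal neurogenesis, was the least abundant of the 6 ligands per kilobase in rAAV-control mice. At 5 d it was found at 0.776, 0.893, 1.03 and 1.48 CPM in rAAV-OVA mice and at 1.89, 2.23, 2.64 and 2.74 CPM in rAAV-control mice. No rAAV-OVA mouse reached the lowest rAAV-control mouse. The means were 1.05 ± 0.310 and 2.38 ± 0.392 CPM (n = 4 each), 44% of the control level, with a Log2FC of -1.09 (SE 0.39). With each mouse left out it ran from -1.30 to -0.92.

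Later the Wnt3 groups overlapped. At 8 d, rAAV-OVA mice had 0.999, 1.11, 1.56 and 2.08 CPM of Wnt3 and rAAV-control mice 1.42, 2.75 and 3.23 CPM, and 2 rAAV-OVA mice were below all rAAV-control mice. The Log2FC was -0.76 (SE 0.40). At 28 d, the values were 0.916, 2.34, 3.02 and 3.34 CPM in rAAV-OVA mice and 1.76, 2.19, 2.49 and 5.35 CPM in rAAV-control mice, so that the spread within each vector exceeded the distance between them. The Log2FC of -0.21 (SE 0.38) joined opposite differences of both batches, -1.27 within batch 1 and 0.67 within batch 2 on the log2 CPM scale, and it was 0.19 without rAAV-control mouse D706. At 2 d, Wnt3 had 2.23, 2.35, 2.44 and 3.77 CPM in rAAV-OVA mice and 2.15, 2.21, 2.37 and 2.76 CPM in rAAV-control mice. Mouse D683 alone exceeded the controls, and the Log2FC of 0.21 (SE 0.36) was -0.01 without it.

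In these bulk samples, fewer cells of a type and less RNA per cell cannot be told apart. Excitatory neuron markers were also lower at 5 d, with a sum of 4620 to 6040 CPM in rAAV-OVA mice and 7600 to 9740 CPM in rAAV-control mice, and 3 of the 5 markers decreased (median Log2FC -0.84). Dentate granule cell markers summed to 257 to 328 CPM against 342 to 480 CPM with 2 of 6 decreased, and oligodendrocyte markers to 2680 to 3960 CPM against 4210 to 7260 CPM with 4 of 5 decreased. The sums of most other resident cell types were lower without overlap at 5 d as well. They were 453 to 530 CPM against higher values of up to 798 CPM for CA1 pyramidal cells (1 of 5 decreased), 168 to 223 against 224 to 343 CPM for CA3 pyramidal cells (2 of 5) and 514 to 583 against 665 to 715 CPM for interneurons (1 of 6). Astrocyte markers summed to 4460 to 5160 against 6230 to 7140 CPM (1 of 6), pericyte and smooth muscle cell markers to 148 to 181 against 235 to 246 CPM (0 of 6) and meningeal fibroblast markers to 59.1 to 97.1 against 111 to 260 CPM (1 of 6). Endothelial cell markers overlapped, at 134 to 189 against 173 to 185 CPM. T cell markers ran from 54.8 to 88.2 CPM in rAAV-OVA mice and from 0.179 to 1.68 CPM in rAAV-control mice at 5 d, with 2 of 2 tested markers increased. Monocyte and macrophage markers summed to 551 to 1230 CPM against 16.2 to 164 CPM with 5 of 6 increased, and microglia markers to 1050 to 1070 CPM against 477 to 748 CPM with 3 of 6 increased. All 6 choroid plexus markers decreased at 5 d, with sums of 42.3 to 130 CPM against 40.2 to 3800 CPM. Without D724, the control rich in choroid plexus markers, the 5 d Log2FC was -1.60 for Wnt9a and -1.10 for Wnt3. At 8 d, sums were lower without overlap for CA1 pyramidal cell markers, at 473 to 581 against 664 to 790 CPM (0 of 5 called), for CA3 pyramidal cell markers, at 169 to 212 against 241 to 305 CPM (1 of 5 decreased), and for meningeal fibroblast markers, at 85.8 to 148 against 194 to 259 CPM (0 of 6 called). The part of these cell types in the Wnt9a and Wnt3 values at 5 d and 8 d was not tested.

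**Figure D2:**
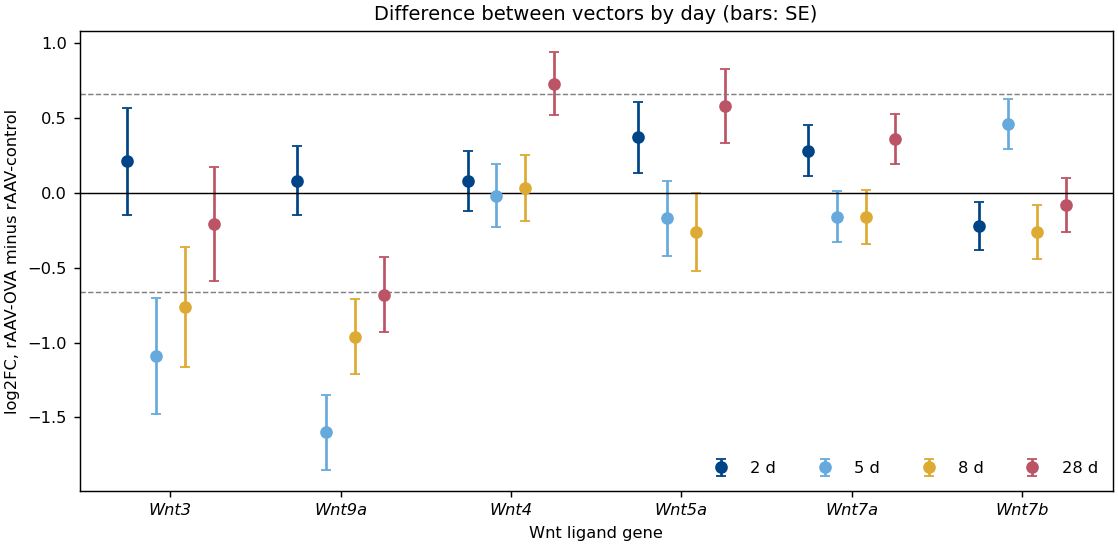
Log2FC of rAAV-OVA over rAAV-control (y axis) for the 6 Wnt ligand genes (x axis) at 2, 5, 8 and 28 d, from the model with 2 surrogate variables. Points are estimates, bars SE, and dashed lines mark a Log2FC of 0.66 in either direction, the size limit used for calls of other genes. Wnt9a is lowest at 5 d with -1.60, and Wnt4 at 28 d is the highest point with 0.73.

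Wnt7b, a ligand that signals to the brain vasculature and promotes dendrite growth, was higher in rAAV-OVA mice at 5 d. It reached 61.5, 70.3, 78.9 and 79.6 CPM in rAAV-OVA mice at 5 d and 52.5, 54.0, 57.3 and 62.3 CPM in rAAV-control mice. Of 4 rAAV-OVA mice, 3 exceeded the highest rAAV-control mouse, and the fourth lay just below it. The mean was 72.6 ± 8.53 against 56.5 ± 4.33 CPM (n = 4 each), with a Log2FC of 0.46 (SE 0.17). At 8 d, the rAAV-OVA values of 36.6, 42.9, 49.5 and 61.2 CPM stood beside rAAV-control values of 52.1, 54.4 and 63.7 CPM. Here 3 of 4 rAAV-OVA mice lay below the lowest rAAV-control mouse, and the Log2FC was -0.26 (SE 0.18).

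Wnt7b at 28 d measured 26.5, 37.2, 42.3 and 52.1 CPM in rAAV-OVA mice and 41.7, 43.6, 45.7 and 49.5 CPM in rAAV-control mice. The lower 2 values belonged to the batch 2 mice, with a difference of -0.44 on the log2 CPM scale within batch 2 and of -0.02 within batch 1, and the Log2FC was -0.08 (SE 0.18). At 2 d the ranges were 43.4 to 53.2 CPM in rAAV-OVA mice and 42.3 to 71.1 CPM in rAAV-control mice, with a Log2FC of -0.22 (SE 0.16). The rAAV-OVA mean of Wnt7b was 46.5 CPM at 2 d, 72.6 CPM at 5 d, 47.5 CPM at 8 d and 39.5 CPM at 28 d, while the rAAV-control means lay between 45.1 and 56.7 CPM.

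Wnt7a, the close relative of Wnt7b that is known to promote synapse formation, overlapped between the vectors on every day. At 5 d it had 10.4, 10.4, 10.8 and 14.9 CPM in rAAV-OVA mice and 13.8, 14.4, 16.4 and 16.6 CPM in rAAV-control mice. Mouse D786 alone kept the groups from being apart, and means were 11.6 ± 2.20 and 15.3 ± 1.43 CPM (n = 4 each). The Log2FC was -0.16 (SE 0.17) with the surrogate variables and -0.40 without covariates. At 8 d, 3 of 4 rAAV-OVA mice again lay below the lowest rAAV-control mouse, with ranges of 10.6 to 15.2 and 12.3 to 15.5 CPM and a Log2FC of -0.16 (SE 0.18). At 28 d, Wnt7a spread from 9.63 to 20.6 CPM in rAAV-OVA mice and from 8.70 to 14 CPM in rAAV-control mice, with D844 highest and a Log2FC of 0.36 (SE 0.17). At 2 d it ran from 11.2 to 15.8 CPM and from 7.68 to 12.9 CPM, and the Log2FC was 0.28 (SE 0.17).

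Wnt4 and Wnt5a showed their largest differences at 28 d, and in both the higher rAAV-OVA values were those of batch 2. Wnt4, known from kidney and female reproductive tract formation, had 5.53, 10.7, 14.4 and 17.6 CPM in rAAV-OVA mice at 28 d and 7.85, 9.29, 9.30 and 9.93 CPM in rAAV-control mice. The lowest rAAV-OVA mouse was below every rAAV-control mouse and the other 3 were above every one. Means were 12.1 ± 5.19 and 9.10 ± 0.881 CPM (n = 4 each), and the Log2FC was 0.73 (SE 0.21) with the surrogate variables but 0.41 without covariates. Within batch 1 the difference of mean log2 CPM was -0.32, and within batch 2 it was 0.89. Without mouse D845 the Log2FC was 0.25.

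Wnt5a, the main ligand of the Ror receptors and the cell polarity branch, reached 8.36, 10.1, 16.8 and 23.8 CPM in rAAV-OVA mice at 28 d and 10.7, 11, 11.4 and 11.7 CPM in rAAV-control mice. As for Wnt4, the higher pair of rAAV-OVA mice was from batch 2, and both batch 1 mice lay below all controls. Means were 14.8 ± 7.04 and 11.2 ± 0.442 CPM (n = 4 each) with a Log2FC of 0.58 (SE 0.25), and within batches the difference was -0.28 and 0.84. Without mouse D845 the Log2FC of Wnt5a at 28 d was 0.02. In the batch 2 rAAV-OVA mice, excitatory neuron markers summed to 2400 CPM in D845 and 3190 CPM in D844, against 5320 and 6060 CPM in the batch 1 rAAV-OVA mice and 6750 CPM or more in the rAAV-control mice. At 28 d, 4 of 5 excitatory neuron markers decreased, and 3 of 6 meningeal fibroblast and 3 of 6 endothelial cell markers increased. CA1 pyramidal cell markers summed to 361 to 526 CPM in rAAV-OVA mice and 611 to 753 CPM in rAAV-control mice, with 3 of 5 decreased. Those of CA3 pyramidal cells overlapped, at 101 to 240 against 226 to 287 CPM, with 4 of 5 decreased. The meningeal fibroblast sum was 975 CPM in D845 and 97.3, 131 and 163 CPM in the other 3 rAAV-OVA mice, D844 among the latter with 163 CPM, against 108 to 301 CPM in rAAV-control mice. Endothelial cell markers summed to 209 to 338 CPM in rAAV-OVA mice and 152 to 183 CPM in rAAV-control mice, with D845 highest. Pericyte and smooth muscle cell markers were at 428 CPM in D845, 233 to 255 CPM in the other rAAV-OVA mice and 205 to 215 CPM in rAAV-control mice. Choroid plexus markers were at 5280 CPM in D845 as well. Dentate granule cell markers summed to 124 to 350 CPM in rAAV-OVA mice and 384 to 459 CPM in rAAV-control mice, with 2 of 6 decreased. Monocyte and macrophage markers summed to 77.4 to 1550 CPM against 7.90 to 20.1 CPM with 5 of 6 increased, and microglia markers to 491 to 1440 CPM against 375 to 418 CPM with 4 of 6 increased. The part of these differences in the Wnt4, Wnt5a and Wnt9a values at 28 d was not tested.

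**Figure D3:**
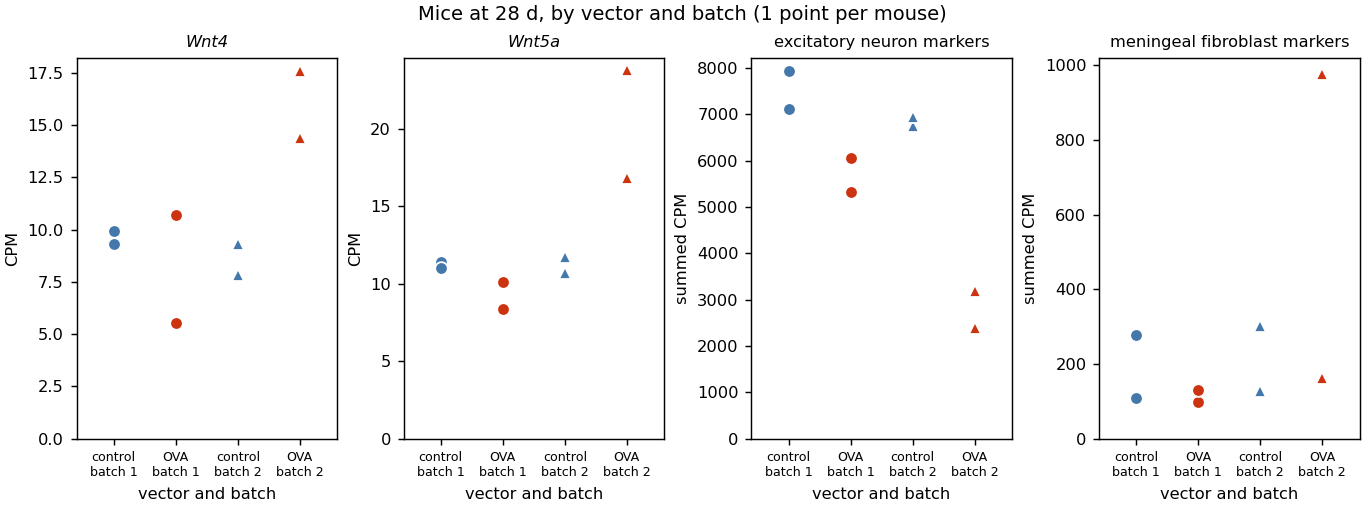
Wnt4 and Wnt5a (CPM) and the summed CPM of excitatory neuron and meningeal fibroblast markers (y axes, from 0) in the 8 mice at 28 d, 2 per vector and batch. Each point is 1 mouse. Batch 2 rAAV-OVA mice hold the highest Wnt4 and Wnt5a values (14.4 and 17.6, 16.8 and 23.8 CPM) and the lowest excitatory neuron sums (2400 and 3190 CPM).

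On the other days, Wnt5a and Wnt4 differed less. Wnt5a at 2 d had 10.1, 10.3, 10.9 and 11.4 CPM in rAAV-OVA mice and 7.43, 7.50, 9.57 and 9.75 CPM in rAAV-control mice, the only ligand whose groups did not overlap at 2 d. Of all genes, 2.22% were higher without overlap at 2 d and 1.94% lower. Its Log2FC was 0.37 (SE 0.24), with 0.49 within batch 1 and 0.16 within batch 2. Monocyte and macrophage markers also did not overlap at 2 d, at 63.7 to 145 CPM in rAAV-OVA mice and 155 to 929 CPM in rAAV-control mice, with 0 of 6 called, and their part in the Wnt5a values was not tested. Wnt5a ranged from 4.58 to 11.5 CPM in rAAV-OVA mice and from 8.24 to 11 CPM in rAAV-control mice at 5 d, and from 7.77 to 12.7 and from 10.2 to 15 CPM at 8 d. In each case 3 of 4 rAAV-OVA mice lay below the lowest rAAV-control mouse, with a Log2FC of -0.17 (SE 0.25) at 5 d and -0.26 (SE 0.26) at 8 d. Wnt4 overlapped on each of the 3 earlier days, with a Log2FC of 0.08 (SE 0.20) at 2 d, -0.02 (SE 0.21) at 5 d and 0.03 (SE 0.22) at 8 d. Without covariates, that of Wnt4 at 5 d was -0.32, from means of 8.66 ± 2.20 and 10.8 ± 1.63 CPM.

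Across the 31 mice, the ligands varied together only in part. The highest Pearson correlation of log2 CPM among the 15 pairs was 0.63, between Wnt4 and Wnt5a, followed by 0.50 between Wnt3 and Wnt9a. The lowest was -0.48, between Wnt5a and Wnt7b. The genes whose levels followed each ligand most closely among 14274 others included Nudcd3 (r = 0.87) and Shroom2 (0.86) for Wnt9a, and Hhatl (0.88), Arrdc3 (0.82) and Efhd1 (0.81) for Wnt3. For Wnt7b they were Phospho1 (0.85), Rprm (0.84) and Adra2c (0.81), and for Wnt7a Mycn (0.75), Phyhipl (0.73) and Nanos1 (0.73). For Wnt5a they were Mme (0.82), Cobll1 (0.81) and Cxcl12 (0.81), and for Wnt4 Tacr3 (0.75), Bnip5 (0.73) and Fxyd6 (0.73). These correlations are a description over mice that share groups, batches and cell composition.

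Of the 136 other Wnt pathway genes listed, 119 were quantified and tested. At 2 d, 0 were called, as were 0 genes of the whole table, of which 1416 had an unadjusted p under 0.05 and DESeq2 called 10. At 5 d, 7 pathway genes increased and 9 decreased, 13.4% beside 14.4% of all genes (9.63% increased and 4.72% decreased). At 8 d, 6 increased and 0 decreased, 5.04% beside 9.89% (9.32% and 0.569%). When the mice of 8 d were tested alone, 0 pathway genes and 0 of all 15648 genes were called. At 28 d, 21 increased and 9 decreased, 25.2% beside 17.7% (12.8% and 4.88%). With batch 1 alone, 4 pathway genes increased and 1 decreased at 28 d, where 3.79% and 0.409% of all genes did. With batch 2 alone it was 1 and 3, where 0.364% of all genes increased and 2.20% decreased, and all of these pathway genes were also called in the full set. The counts changed with single mice, to 3 decreased at 5 d without D725 and 4 without D724, and to 3 increased at 8 d without D722. At 28 d, 10 increased without BEC-B542 and 12 without D845, and 3 decreased without D844, 5 without D851 and 15 without D667. The share of all genes called in these fits is not given here. These counts therefore cannot tell a change of the pathway from one of all genes. Of the markers given above, most excitatory neuron markers decreased at 5 d and 28 d and 3 of 6 endothelial cell markers increased at 28 d, while at 8 d 0 of 5 excitatory neuron markers (median Log2FC -0.56) and 0 of 6 endothelial cell markers (median -0.03) were called. At 8 d, 2 of 6 dentate granule cell markers and 1 of 5 CA3 pyramidal cell markers decreased, and the sums of CA1, CA3 and meningeal fibroblast markers were lower without overlap. On each of the 3 days, 2 of 2 tested T cell markers and 5 of 6 monocyte and macrophage markers increased, and the part of these cell types in the pathway genes was not tested.

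**Figure D4:**
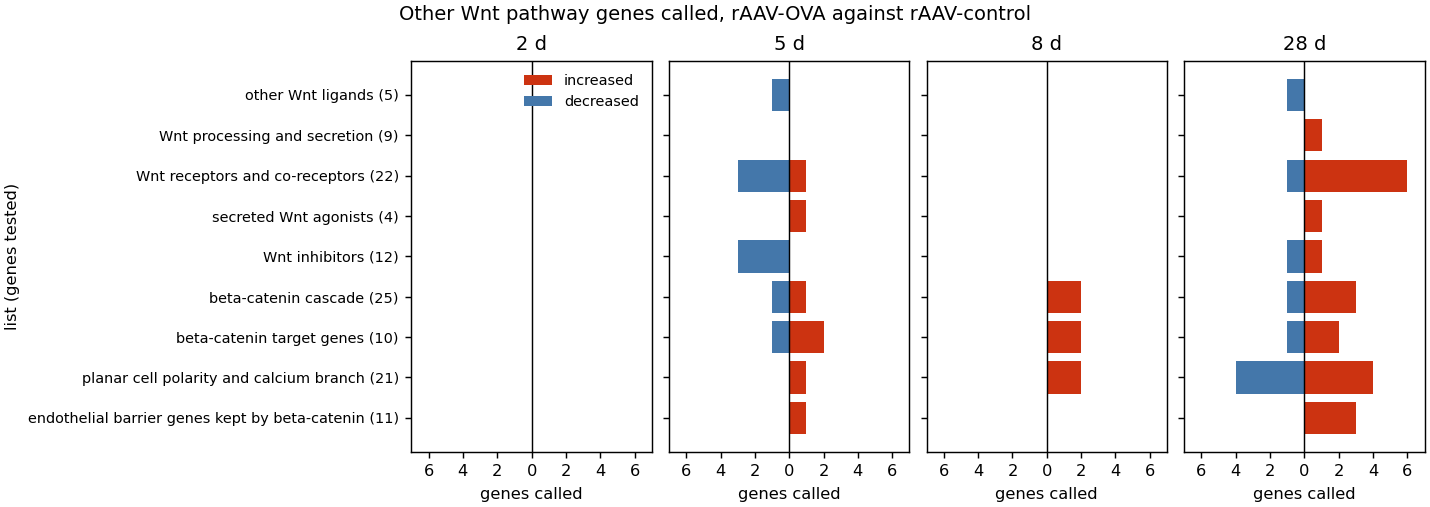
Number of other Wnt pathway genes called (x axes) by list (y axis, genes tested in brackets) at 2, 5, 8 and 28 d, with increased genes to the right of 0 and decreased genes to the left. At 28 d, the receptor list has 6 increased and 1 decreased genes and the polarity and calcium branch 4 and 4. With both directions joined, these are the highest totals of any list and day.

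Among the Wnt ligands not chosen, 1 of 5 decreased at 5 d and 1 of 5 at 28 d. Wnt11, a ligand of the polarity branch, was at 0.368 ± 0.143 CPM in rAAV-OVA and 0.932 ± 0.120 CPM in rAAV-control mice at 5 d (n = 4 each), with a Log2FC of -1.57 (SE 0.43, edgeR FDR 0.0088). Wnt2 decreased at 28 d to 2.79 ± 1.63 from 5.85 ± 0.734 CPM (Log2FC -1.10, SE 0.32, edgeR FDR 0.012). Wnt5b, Wnt9b and Wnt10a were not called on any day. Of the 9 genes of Wnt processing and secretion, 1 was called, at 28 d, the glypican Gpc3 with a Log2FC of 1.55 (edgeR FDR 0.0044), which fell to 0.12 without D844. Porcn, the enzyme that acylates Wnts, had 36.5 ± 2.37 against 53.1 ± 3.72 CPM at 5 d and 31.5 ± 7.79 against 48.8 ± 3.85 CPM at 28 d. Its Log2FC of -0.52 (edgeR FDR 0.0050) and -0.63 (edgeR FDR 0.0014) did not reach the limit of 0.66. Wls, the carrier of Wnts, had a Log2FC of -0.08 (edgeR FDR 0.80) at 5 d and 0.62 (edgeR FDR 0.024) at 28 d.

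Among the 22 receptor and co-receptor genes, 1 increased and 3 decreased at 5 d, and 6 increased and 1 decreased at 28 d. At 5 d, Lgr6, a receptor for R-spondins, increased (Log2FC 1.05, edgeR FDR 0.0017). Fzd4 (-1.0, edgeR FDR 0.015), Fzd2 (-0.76, 0.029) and Reck (-0.68, 0.0080), which serves Wnt7a and Wnt7b at the blood-brain barrier, decreased. Without D724, these 3 decreases were -0.61, -0.58 and -0.54 and were no longer called. Adgra2, the partner of Reck, had a Log2FC of 0.08 (SE 0.24) at 5 d and 0.31 (SE 0.24) at 28 d. At 28 d, Fzd5 (1.36, edgeR FDR 0.0054), Ror2, the Wnt5a receptor (1.08, 0.024), and Lrp5 (0.82, 0.0079) were among the increases, and Ror1 decreased (-0.79, 0.014). Fzd5 was at 0.40 without D844 and Ror2 at 0.27 without D845, and neither was then called. Lrp6 had a Log2FC between -0.13 and 0.02 on the 4 days.

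Of 4 tested secreted agonists, Rspo1, an R-spondin, increased at 5 d, from 1.30 ± 0.293 to 4.04 ± 0.928 CPM (Log2FC 1.61, edgeR FDR 0.0054). At 28 d its Log2FC was 1.39 (edgeR FDR 0.011), and 0.72 without D844. Of 12 tested inhibitors, 3 decreased at 5 d, Sostdc1 (-2.99, edgeR FDR 0.024), Sfrp4 (-1.37, 0.0038) and Trabd2b (-0.88, 0.024), which without D724 were -1.30, -0.88 and -0.69 and no longer called. At 28 d, Sfrp1, a secreted Frizzled decoy, increased (1.02, edgeR FDR 0.012) and Dkk3 decreased from 397 ± 28.5 to 235 ± 99.8 CPM (-0.89, edgeR FDR 0.0021). Dkk3 was at -0.34 without D844.

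In the beta-catenin cascade, 2 of 25 genes were called at 5 d, 2 at 8 d and 4 at 28 d. Ctnnb1, the beta-catenin gene, had 522 ± 18.9 against 513 ± 34.3 CPM at 5 d and a Log2FC between -0.12 and 0.09 on the 4 days. Tcf7, a factor also abundant in T cells, was higher at 5 d, at 21.8 ± 4.96 against 2.90 ± 0.619 CPM, and increased by a Log2FC of 2.38 at 5 d, 3.83 at 8 d and 4.32 at 28 d (edgeR FDR 0.00079, 0.00011 and 1.5e-05). Lef1 increased at 8 d (1.00, edgeR FDR 0.021) and 28 d (1.31, 0.0017), and Pygo1, a nuclear partner of beta-catenin, decreased at 5 d (-0.79, 0.00073) and 28 d (-0.82, 0.00083). Of the 10 tested target genes, Axin2, the feedback inhibitor often read as a measure of beta-catenin signalling, had 13.5 ± 0.612 against 19.6 ± 1.22 CPM at 5 d. Its Log2FC of -0.43 (SE 0.11, edgeR FDR 0.0042) did not reach the limit, and it was 0.18 (SE 0.11) at 28 d. Myc, also expressed by leukocytes, increased at 5 d (1.51, edgeR FDR 0.00035), 8 d (2.06, 0.00013) and 28 d (1.71, 0.00025). Cd44, an adhesion receptor of leukocytes as well, increased at 5 d (3.09, 0.00026), 8 d (1.97, 0.015) and 28 d (2.57, 0.0017). Neurod1, a gene of granule cell formation, decreased at 5 d (-1.17, edgeR FDR 0.0059) and 28 d (-0.87, 0.038). T cell markers ran from 66.5 to 203 CPM in rAAV-OVA mice and 1.19 to 17.8 CPM in rAAV-control mice at 8 d, and from 6.86 to 177 and from 0.137 to 1.15 CPM at 28 d. Monocyte and macrophage markers ran from 409 to 1800 CPM in rAAV-OVA mice and 24.4 to 224 CPM in rAAV-control mice at 8 d with 5 of 6 increased, and 1 of 6 microglia markers increased at 8 d. The part of these cells in Myc, Cd44 and Tcf7, and that of granule cells, whose markers were lower at 5 d and 28 d as given above, in Neurod1, was not tested.

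Of the 21 genes of the polarity and calcium branch, 1 was called at 5 d, 2 at 8 d and 8 at 28 d. Nfatc1, a calcium-responsive factor also used by T cells, increased at 5 d (1.06, edgeR FDR 0.0077), 8 d (1.52, 0.0013) and 28 d (1.87, 0.00016). Prickle2, a polarity gene of neurons, decreased at 28 d from 357 ± 24.3 to 200 ± 72.0 CPM (-0.97, edgeR FDR 0.00059). In the list of 11 endothelial genes tied to the barrier and to beta-catenin, in either direction, 1 was called at 5 d. This was Mfsd2a, a lipid transporter, which increased (1.09, edgeR FDR 0.0035), and 3 genes of the list increased at 28 d. Cldn5, the tight junction claudin, increased at 28 d from 22.6 ± 7.38 to 46.6 ± 12.6 CPM (1.15, edgeR FDR 0.0037) and had a Log2FC of -0.37 (SE 0.28) at 5 d. Cldn5 is also among the 3 endothelial cell markers counted as increased at 28 d, the others being Pecam1 (1.09) and Cdh5 (0.95), and the part of endothelial cell content in its difference was not tested.

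The response itself differed between 5 d and 28 d in 16 of the 119 pathway genes (13.4%, beside 9.48% of all genes), of which 14 had the higher Log2FC at 28 d. This count was 2 without the 2 d mouse BEC-B542, where 1.59% of all genes differed, 6 without D845 (5.13%), 9 without D725 (4.59%) or D755 (5.04%), and 29 without D667 (13.5%). Between 5 d and 8 d the response differed in 0 pathway genes by edgeR, beside 0.192% of all genes, and 11 of 119 had an unadjusted p under 0.05, beside 7.21% of all genes. Between 8 d and 28 d it differed in 0, as in 0 of all genes, with 27 of 119 at an unadjusted p under 0.05, beside 16.2% of all genes, and 3 called by DESeq2, beside 1.41%. Since all 5 d mice were of batch 1, the day and the batch cannot be told apart for the batch 2 mice of 28 d. With batch 1 alone, the response differed in 3 of the 119 pathway genes, beside 2.14% of all genes.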

How the data were processed

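RNA of left hippocampi was measured in 31 mice, 1 library each. The authors trimmed reads with fastp, quantified GENCODE M29 transcripts with Salmon 1.8.0 and its GC correction, and summed them with tximeta. The deposited values are expected counts per gene (estimated counts written as whole numbers, not normalized), kept by the authors where at least 15 of 31 mice had at least 15 counts. A second table with the same values was not used, and 0 columns of values were left unused. Symbols were missing for 824 genes. The study itself used DESeq2 1.36.0 with fold changes shrunken by ashr. Its size limit on them was applied here to unshrunken values, so calls are not the same quantity.

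Here, edgeR 4.0.16 in R 4.3.3 fitted all 31 mice with TMM factors, the 8 groups of vector and day taken from the labels, and 2 surrogate variables from sva 3.50.0. FDR values are Benjamini-Hochberg adjusted over 15648 genes. CPM uses TMM-scaled totals, and correlations used log2 CPM with a prior count of 2 over genes with a mean of at least 1 CPM. P-values of edgeR set a difference between vectors, or between responses, against the spread between mice within groups. This spread was estimated from all 31 mice, not from those of the compared day alone, and drew on other genes. Total counts were 19046977 to 57407902 per mouse (median 27024978, highest in rAAV-control mouse D755 at 5 d). Replicate libraries differed beyond counting noise.

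The ligands, pathway lists and markers were chosen with earlier results of these data known. Besides the 6 ligands, named genes are Wls, Porcn, Ctnnb1, Axin2, Lef1, Lrp6, Adgra2, Reck and Cldn5, up to 4 called genes per list and day with the largest changes, and the 3 most similar genes per ligand. A few such genes were left out. Names outside this rule are the ligands and markers that were counted. Alternatives were the Wald test of DESeq2 1.42.0, its size factors, no covariates, the batch label, at least 15 counts in every mouse, each day alone, no limit on Log2FC and each mouse left out, and, added after seeing the data, D755 left out and each batch alone. The steps were tested on simulated data.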

Additional observations from a re-analysis of the deposited data

Results flagged for a closer look

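Of the 42 groups of 4 mice checked for the 6 ligands, 2 held a mouse far from the other 3, and chance alone sets off this check in about 1 of 20 groups. Wnt3 was at 3.77 CPM in rAAV-OVA mouse D683 at 2 d, where the next mouse had 2.44 CPM. Wnt7a was at 14.9 CPM in rAAV-OVA mouse D786 at 5 d, where the next mouse had 10.8 CPM.

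For 7 of the named pathway genes, the Log2FC of rAAV-OVA over rAAV-control differed between 28 d and 5 d, by an interaction in the same edgeR model with Benjamini-Hochberg adjustment. The difference, 28 d minus 5 d, was 0.60 for Axin2 (SE 0.14, FDR 0.0096), 1.30 for Lef1 (SE 0.37, FDR 0.029) and 0.80 for Reck (SE 0.24, FDR 0.040). It was 1.52 for Cldn5 (SE 0.36, FDR 0.012), 2.09 for Gpc3 (SE 0.55, FDR 0.021) and 1.94 for Tcf7 (SE 0.62, FDR 0.048). Mfsd2a alone of these was lower at 28 d, with -1.22 (SE 0.35, FDR 0.029). With batch 1 alone, the differences were 0.44, 1.14, 0.53, 1.80, 0.47, 1.92 and -1.39 in this order, and Cldn5 (FDR 0.034) and Tcf7 (FDR 0.023) were called.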

How the results depend on the processing

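Over 6 alternatives, the Log2FC of Wnt3 at 5 d ran from -1.18 to -1.07 and that of Wnt9a from -1.68 to -1.58 at 5 d, -0.99 to -0.88 at 8 d and -0.79 to -0.67 at 28 d. Wnt4 at 28 d ran from 0.39 to 0.75 and was -0.32 within batch 1. With the mice of that day alone, 14 pathway genes decreased at 5 d (5.46% of all genes did), 0 increased at 8 d (0%), and 11 increased and 5 decreased at 28 d (10.9% and 2.54%). This fit holds fewer mice. With no limit on Log2FC, 19 decreased at 5 d (14.1% of all genes), 5 at 8 d (4.35%) and 21 at 28 d (14.3%). At 28 d, batch 1 alone gave 4 increased and 1 decreased and batch 2 alone 1 and 3, and the response differed between 5 d and 28 d in 3 genes with batch 1 alone. DESeq2 found 3 genes whose response differed between 8 d and 28 d. The causes were not tested.

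With each mouse left out, 3 to 11 pathway genes decreased at 5 d (3 without D725, 4 without D724), 3 to 8 increased at 8 d (3 without D722) and 0 to 1 decreased at 8 d (1 without BEC-B542, D701 or D844). At 28 d, 10 to 27 increased (10 without BEC-B542, 12 without D845) and 3 to 15 decreased (3 without D844, 5 without D851, 15 without D667). The response differed between 5 d and 28 d in 2 to 29 genes (2 without BEC-B542, 6 without D845, 9 without D725 or D755, 29 without D667) and between 8 d and 28 d in 0 to 4 (2 without D696, 4 without D667). Apart from the response between 5 d and 28 d, these counts stand without the share of all genes. They cannot tell a change of the pathway from one of all genes. At 28 d, Tcf7l2, increased with all mice, had a Log2FC of -0.03 without D844. Of 44 calls of named genes, 20 were lost and 1 reversed in their least favourable such fit, 19 were lost with the day alone, 4 without covariates, 4 with the batch label, and 3 of 40 with the stricter filter. With DESeq2 or its size factors, 0 were lost.

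No paired analysis was possible because the replicate numbers follow accession order and tie no mouse of one group to a mouse of another. Genes expressed by few mice were removed by the filter on counts, and 2 of 7 T cell markers were tested. With about 4 mice per group, the SE of a ligand's Log2FC was between 0.16 and 0.40.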
